A study of Glycine max with 12 samples.

Results

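The small heat shock proteins and heat factors of soybean, Glycine max, were taken as the gene models annotated with the Hsp20/alpha-crystallin domain (Pfam PF00011) or the HSF-type DNA-binding domain (PF00447). The annotation gave 136 such models of 56044, of which 84 held the first domain, 52 the second and 0 both. Levels were read in 12 RNA-Seq libraries, 1 per condition, so no difference below has a replicate check. Of these, 11 came from the cultivar Williams, which carries the dominant i-i allele of the I locus and makes yellow seed coats. They were cotyledon and seed coat of 5–6 mg immature seed, seed coat of 25–50 mg seed, cotyledon, embryo axis and seed coat of yellow desiccating 200–300 mg seed, embryo axis of desiccating 300–400 mg seed, cotyledon and seed coat of seed that was mature and dry, seedling roots at day 5 and adult leaves taken as still rolled trifoliates. The remaining library was the 25–50 mg seed coat of Williams 55 (W55), a line with black seed coats and a spontaneous recessive i mutation. The paper's pedigree places that mutation in a backcross isoline of Williams with added disease resistance genes. W55 lacks a stretch of the I locus that holds most of its chalcone synthase genes and several genes of other kinds. All plants grew in a greenhouse under favourable conditions, and the labels name no heat treatment.

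Small heat shock proteins are chaperones that form large oligomers and hold unfolding proteins in a soluble state until ATP-driven chaperones such as HSP70 and HSP101 refold them. Plants have unusually many, sorted into cytosolic classes and into forms imported into mitochondria, chloroplasts, the endoplasmic reticulum and peroxisomes. Most are silent in unstressed leaves, are induced by heat through trimeric heat shock factors, and are also made during seed maturation, when seeds gain tolerance to drying. Class A heat factors activate transcription, while most class B factors lack that activation domain and many act as repressors or coactivators. In Arabidopsis and sunflower the seed programme runs through HSFA9, under the maturation regulator ABI3. No soybean model here had Arabidopsis HSFA9 as its closest match.

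The deposited values are RPKM, alignments scaled to the length of the model and to the library total, a scale on which levels of different models can be set side by side. The recovered totals ran from 14725418 alignments in leaf to 187479360 in root. The number of alignments (hits) behind each value was recovered, and every ratio below carries an exact 95% interval from those hits, which covers counting error only. Reads with up to 25 alignments counted at each place, so near-identical copies share reads and their values are not separate measurements. In a dissected organ, fewer cells of a type and less RNA per cell cannot be told apart. The 6 libraries of desiccating and dry seed were all sequenced as longer single reads on the same kind of instrument, and the other 6 with shorter reads, so stage and read type cannot be told apart between these sets. Unannotated models on chromosome 13 took 47.6% of the RPKM of dry seed coat and, in 5–6 mg seed, 54.0% of that of cotyledon and 75.7% of that of seed coat, against 2.7% to 20.7% elsewhere. In those 3 libraries every other value would be higher by a factor of 1.405, 1.463 and 2.4 without them. The defining transcripts of the tissues were highest where the labels put them: light harvesting and Rubisco small subunit models made 7.82% of the RPKM in leaf and at most 0.418% elsewhere, and late embryogenesis abundant models made 3.58% to 7.44% in the desiccating and dry libraries. Casparian strip models were highest in root, at 0.0134%. Seed storage cupins were highest in desiccating cotyledon, at 0.977%, but made 0.238% in the 200–300 mg seed coat beside 0.237% in the axis of the same seed. Whether embryo material entered that seed coat library was not tested.

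By closest Arabidopsis protein, the 84 small heat shock protein models fell into 29 of cytosolic class I, 7 of class II, 2 each of classes III, IV and V, 6 chloroplast, 9 endoplasmic reticulum, 4 mitochondrial and 2 peroxisomal forms, and 21 other proteins with an alpha-crystallin domain. Of the 84, 78 reached 1 RPKM in at least 1 library, 45 reached 10 and 15 reached 100, and 6 never reached 1. The highest library was a desiccating or dry one for 53 models and another one for 31. Among the 52 heat factors, 46 reached 1 RPKM, 21 reached 10 and 2 reached 100, with 30 highest in desiccating or dry seed and 22 elsewhere. Among the models that reached 1 RPKM the highest library was a desiccating or dry one for 52 of 78 small heat shock proteins and 29 of 46 heat factors, beside 31.6% of all 41060 such models.

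Summed over the 84 models, small heat shock protein transcripts were lowest in the 5–6 mg cotyledon at 74.41 RPKM, or 0.012% of the library. The 5–6 mg seed coat gave 102.6, leaf 135.8, the W55 seed coat 205.8, the Williams 25–50 mg seed coat 487.5 and root 935. In desiccating seed the sum was 3171 in cotyledon, 4136 in the 200–300 mg axis (1.126% of the library), 1177 in the 300–400 mg axis and 636.8 in seed coat. In dry seed it was 3918 in cotyledon and 1695 in seed coat. The highest sums were those of late cotyledon and the younger axis, but the groups of libraries overlapped, since root was above the 200–300 mg seed coat. The heat factor sum did not overlap: it was 465 to 671.3 RPKM in the 6 desiccating and dry libraries and at most 204.8, in root, in the others. Without the chromosome 13 models the 5–6 mg seed coat would have 246.3 RPKM of small heat shock proteins and the dry seed coat 2381.

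**Figure D1:**
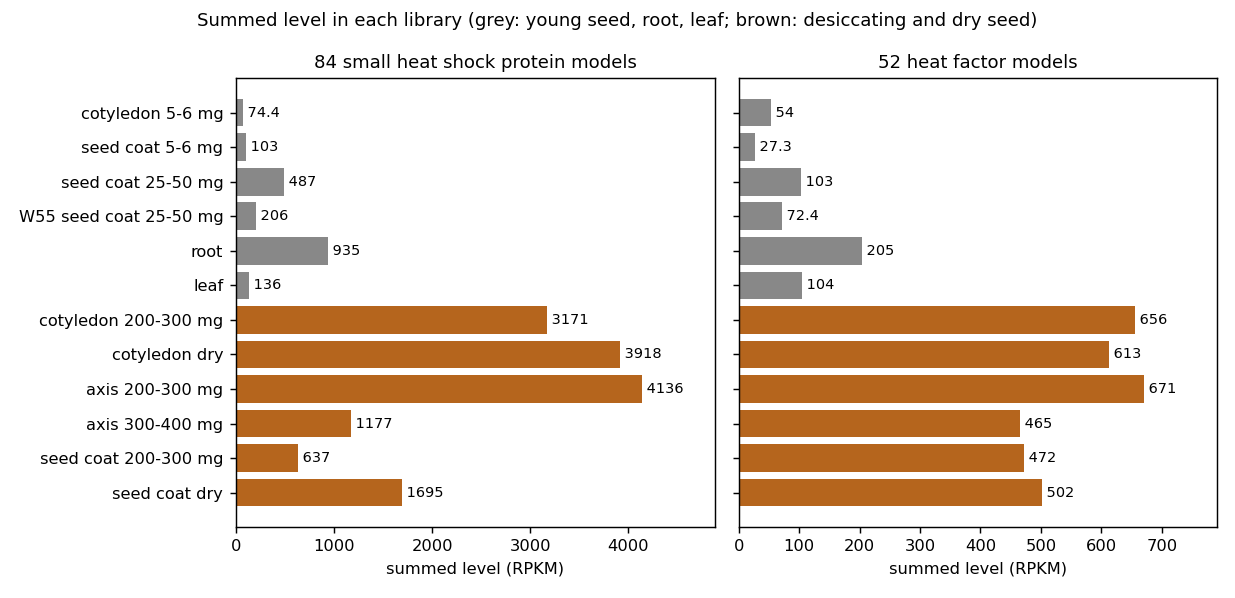
Summed RPKM of the 84 small heat shock protein models (left) and the 52 heat factor models (right) in each of the 12 libraries, each bar 1 library, with an axis from 0 in each panel. The small heat shock protein sum was 4136 RPKM in the younger axis and 1177 in the older one, beside heat factor sums of 671.3 and 465.

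Counted model by model, 8 of the 78 measured small heat shock proteins had all 6 desiccating and dry libraries above all 6 others. Over all 41060 measured models the share was 7.07%, so 8 of 78 was not far from the background. For heat factors it was 15 of 46. In the opposite direction, where 12.6% of all models lay, there were 0 of the 78 and 0 of the 46. The 8 small heat shock proteins were class I Glyma.02G076600, Glyma.11G134200 and Glyma.14G063800, both class III models, mitochondrial Glyma.08G212000 and Glyma.07G030800, and endoplasmic reticulum Glyma.20G213900.

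**Figure D2:**
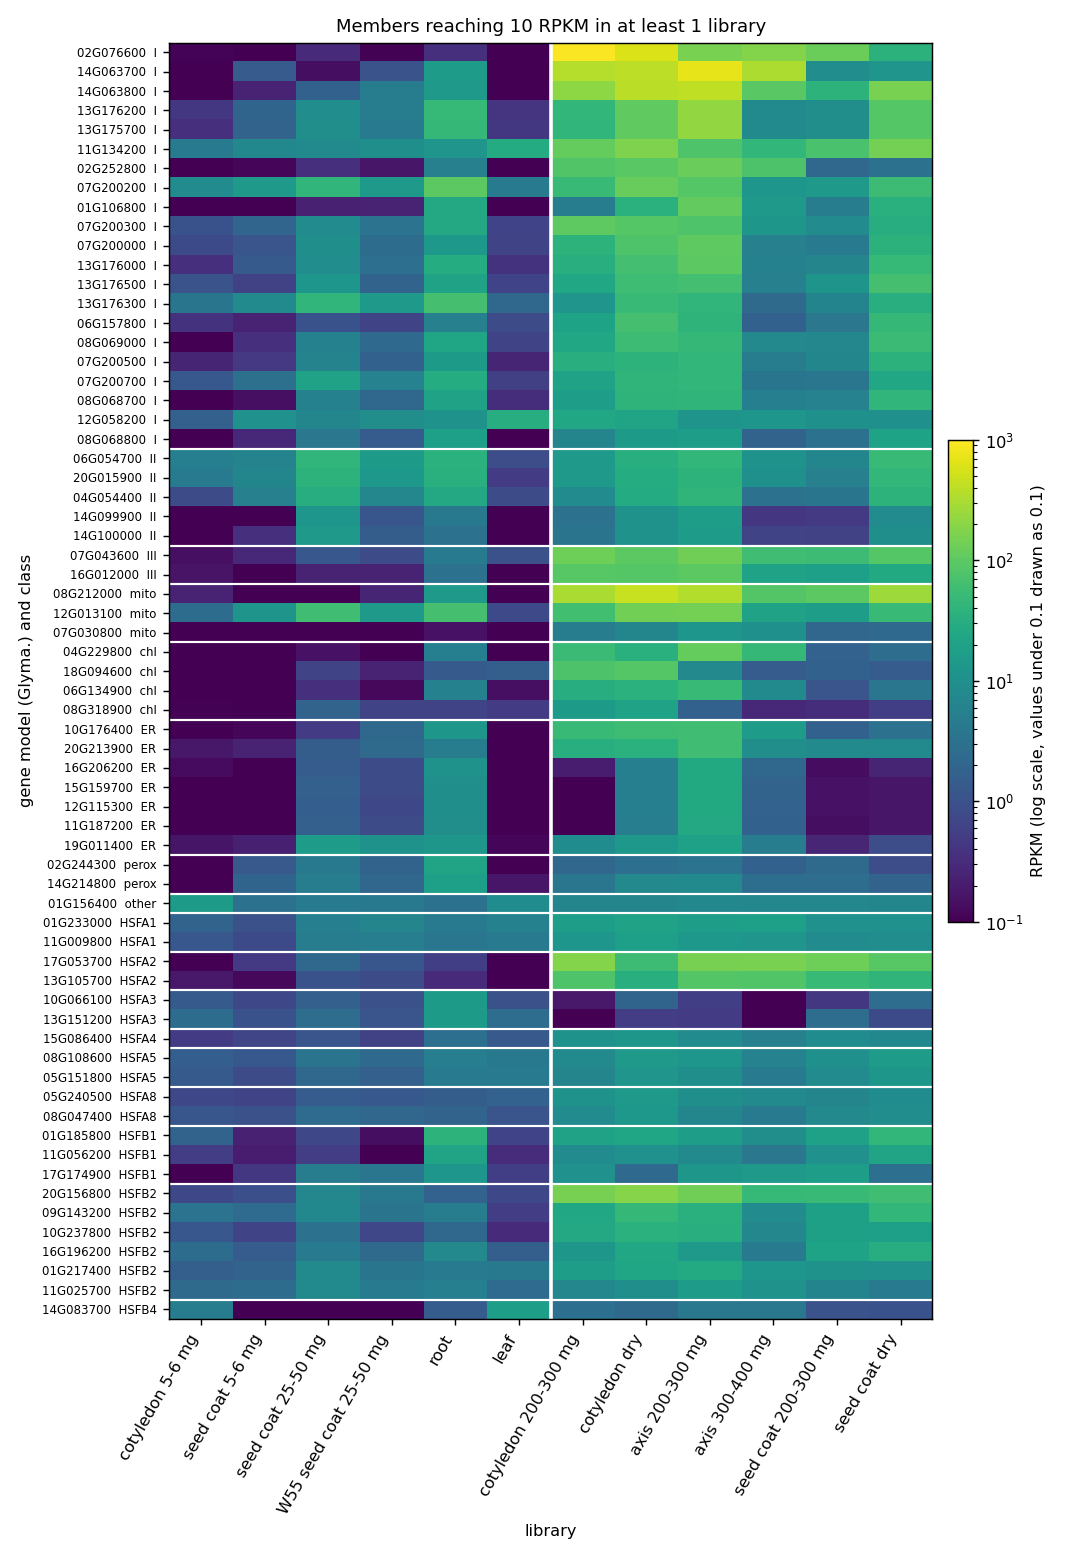
RPKM (colour, log scale) of each member that reached 10 RPKM (rows, grouped by class) in the 12 libraries (columns), with the 6 desiccating and dry seed libraries right of the upright white line. The class III pair is bright only on the right, many class I models also in root, and HSFA2 matches 17G053700 and 13G105700 run from 33.6 to 181.9 RPKM on the right and reach at most 2.22 on the left.

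Cytosolic class I held most of the transcript, 2214 of 3171 RPKM in the 200–300 mg cotyledon and 2762 of 4136 in the axis of the same seed. Its most abundant model was Glyma.02G076600, closest to Arabidopsis AT1G53540. Its level was 938.5 RPKM in the 200–300 mg cotyledon, 616.1 in dry cotyledon, 157.2 and 178.7 in the younger and older axis, 125.4 in the 200–300 mg seed coat and 36.55 in dry seed coat. In the 6 other libraries it ran from 0 to 0.342 RPKM, so the lowest desiccating or dry value lay above all of them. This 1 model made 29.6% of the small heat shock protein RPKM of the 200–300 mg cotyledon.

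The next class I models were neighbours on chromosome 14. Glyma.14G063700 was highest in the axis, at 707 RPKM at 200–300 mg and 324.4 at 300–400 mg, beside 361.9 and 404.4 in desiccating and dry cotyledon. In the desiccating and dry seed coat it had 9.01 and 12.21 RPKM, below the 15.75 of root, and it was listed at 0 in the 5–6 mg cotyledon and in leaf. Its neighbour Glyma.14G063800 reached 409.9 RPKM in the 200–300 mg axis and 381.8 in dry cotyledon, but it was also at 39.1 and 154.8 RPKM in desiccating and dry seed coat. The order of these adjacent models was thus reversed between the organs, the first being higher in all 4 late embryo libraries and the second in both late seed coats. Glyma.02G252800 resembled the first of them, at 75.1 to 120.5 RPKM in the 4 late embryo libraries and 2.26 and 3.06 in the late seed coats.

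A further group of class I models carried neighbouring numbers on chromosomes 7, 8 and 13. Glyma.13G176200 had 223.3 RPKM in the 200–300 mg axis, 105.7 in dry cotyledon, 87.7 in dry seed coat, 48.5 in root and 9.16 in the Williams 25–50 mg seed coat. Glyma.13G175700 gave nearly the same values, 222.8, 106.8, 89.0, 45.4 and 9.61 RPKM, and the pair may share reads. Glyma.07G200200 had the highest minimum of the class I models. It was at 117.3 RPKM in dry cotyledon and 98.0 in root, where it was the highest small heat shock protein, with 43.4 in the Williams 25–50 mg seed coat and 4.35 in leaf as its lowest. Glyma.13G176300 was highest in root, at 65.5 RPKM, with 50.7 in dry cotyledon and 43.03 in the Williams 25–50 mg seed coat. These models were thus measured in late embryo, root and young seed coat, where Glyma.02G076600 was near 0 outside late seed.

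Leaf had 2 class I models near 30 RPKM. Glyma.12G058200 was highest in leaf at 30.63 RPKM, the most abundant small heat shock protein there, and ranged from 1.67 to 24.6 elsewhere. Glyma.11G134200 was at 29.4 RPKM in leaf, beside 43.8 to 168.3 in the desiccating and dry libraries and 4.25 to 12.03 in the others. At the low end, Glyma.18G192000 (4.37 RPKM in root) and Glyma.04G108500 (2.20 in root, 3.17 in leaf) were at most 0.112 RPKM in every seed library. The class I models Glyma.16G158500, Glyma.07G141700 and Glyma.07G200600 never reached 1 RPKM.

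The class III pair, closest to AT1G54050, was mainly found in late seed. Glyma.07G043600 had 130.3, 98.7, 137.9 and 58.3 RPKM in desiccating cotyledon, dry cotyledon and the younger and older axis, and 54.4 and 88.5 in desiccating and dry seed coat. Its highest value elsewhere was 4.46, in root. Glyma.16G012000 ran from 18.4 to 96.9 RPKM in late seed and from 0.0347 to 3.11 in the other libraries.

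Mitochondrial small heat shock proteins work in the matrix, and the soybean models split by their Arabidopsis match. Glyma.08G212000, closest to AT1G52560, reached 464.5 RPKM in dry cotyledon, 346.1 in the 200–300 mg axis, 314.3 in the desiccating cotyledon and 257.7 in dry seed coat, where it was the most abundant small heat shock protein. Its other late values were 97.7 in the desiccating seed coat and 84.3 in the older axis. In the remaining libraries it was at 0 to 0.262 RPKM, except for 14.1 in root. Glyma.12G013100, closest to AT4G25200, was also high in late seed, at 147.1 RPKM in the axis and 139.8 in dry cotyledon. Unlike the first, it had 59.1 RPKM in the Williams 25–50 mg seed coat, where no small heat shock protein was higher, 66.5 in root and 11.7 in the 5–6 mg seed coat.

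The class II models, which are cytosolic as well and closest to AT5G12020, spread across tissues. Glyma.06G054700 was at 49.2 RPKM in dry seed coat, 44.1 in the 200–300 mg axis, 43.3 in the Williams 25–50 mg seed coat, 35.7 in root and 32.0 in dry cotyledon. In the desiccating seed coat it had 6.83 RPKM and in leaf 0.888. Glyma.20G015900 had similar values, at most 44.6 RPKM, and Glyma.04G054400 peaked at 40.7 RPKM in the axis. The neighbours Glyma.14G099900 and Glyma.14G100000 were lower, at most 17.5 and 16.2 RPKM. Glyma.17G224900 was found almost only in the Williams 25–50 mg seed coat, at 4.39 RPKM against 0.597 or less in the other 11 libraries.

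The chloroplast forms, all closest to AT4G27670, protect photosystem and thylakoid proteins in Arabidopsis. Here 5 of the 6 were highest in late seed. Their balance between the embryo organs differed. Glyma.04G229800 had 115.4 and 46.5 RPKM in the younger and older axis and 54.0 and 34.2 in desiccating and dry cotyledon. Glyma.06G134900 was at 50.6 RPKM in the younger axis and 31.4 in desiccating cotyledon, and had 6932 hits in the younger axis but 1044 in the older one. Glyma.18G094600 was instead at 75.1 and 87.4 RPKM in the cotyledons and 7.73 and 1.43 in the axes, and Glyma.08G318900 at 15.1 and 20.2 against 1.72 and 0.28. In desiccating or dry seed coat the 6 models had at most 3.68 RPKM. Glyma.18G010500 was the exception, highest in leaf at 6.35 RPKM.

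The 9 endoplasmic reticulum models, closest to AT4G10250, were all highest in the 200–300 mg axis. Glyma.10G176400 was at 59.7 RPKM there, with 51.4 and 57.6 in the cotyledons and 1.77 and 3.20 in the late seed coats. Glyma.20G213900 was at 59.0 RPKM in the axis and 7.84 and 7.80 in the late seed coats. A set of 4 models on chromosomes 11, 12, 15 and 16 (Glyma.11G187200, Glyma.12G115300, Glyma.15G159700 and Glyma.16G206200) had nearly equal values, 25.9 to 26.9 RPKM in the axis, 5.19 to 5.41 in dry cotyledon, 9.38 to 10.97 in root and 0 to 0.2 in desiccating cotyledon. These 4 may share their reads. The counts below take them as separate models, and where they enter a count that of the class with the 4 taken as 1 is given as well, a choice made after the values had been seen.

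**Figure D3:**
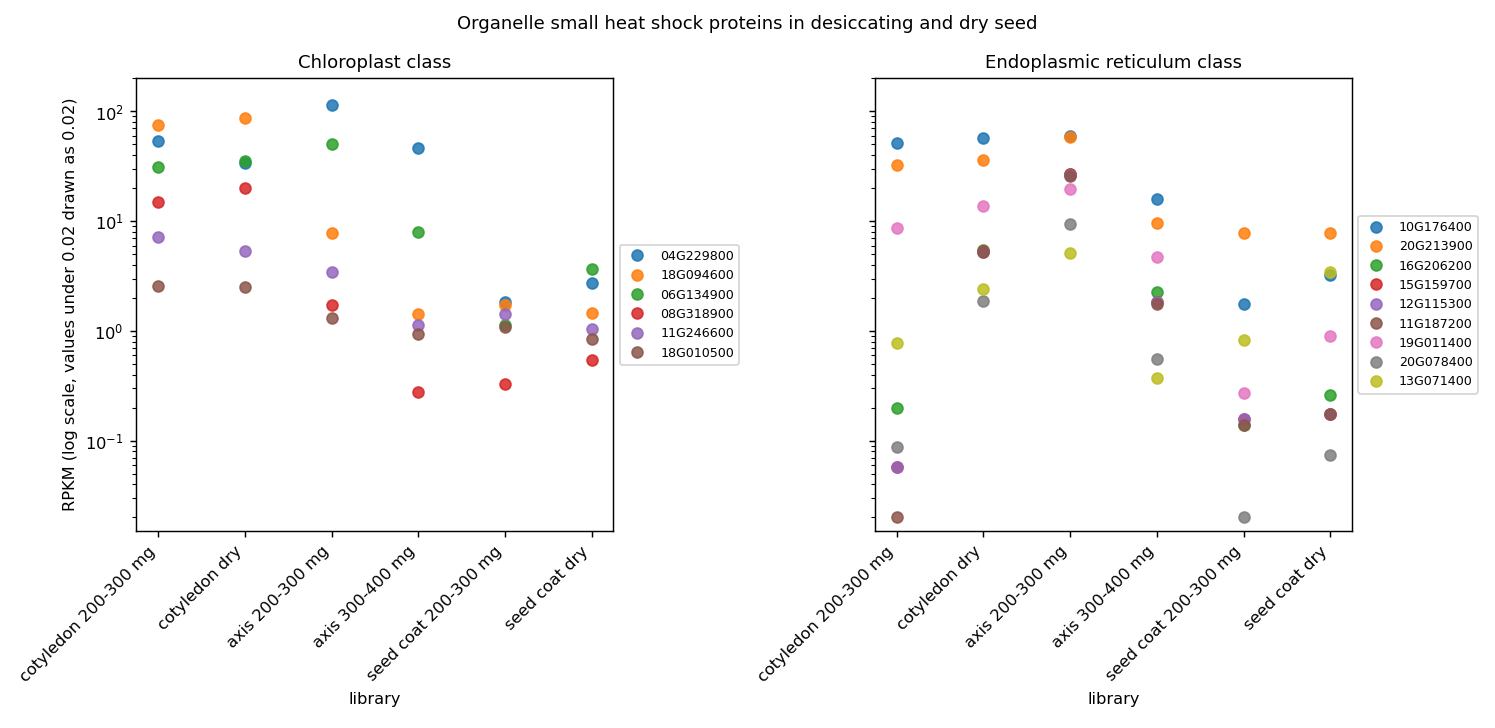
RPKM (log scale) of the 6 chloroplast models (left) and the 9 endoplasmic reticulum models (right) in the 6 desiccating and dry seed libraries, 1 point per model. In the chloroplast panel 04G229800 and 06G134900 lie above the rest in the axis while 18G094600 and 08G318900 lie high only in cotyledon, and in the right panel the 4 models of near-equal value lie at 0.2 RPKM or less in the 200-300 mg cotyledon and between 25.9 and 26.9 in the axis.

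Several minor classes were highest outside the late embryo. The peroxisomal pair, closest to AT5G37670, was highest in root, with Glyma.02G244300 at 21.8 RPKM and Glyma.14G214800 at 18.3, against at most 8.19 in any seed library. Class V models Glyma.12G215300 and Glyma.13G286300 were at 5.54 and 2.89 RPKM in root and 4.50 and 1.83 in the Williams 25–50 mg seed coat, and at most 0.259 in the late embryo. Class IV Glyma.13G205800 was highest in the desiccating seed coat, at 7.36 RPKM, beside 2.49 in root and 0 to 0.151 in the cotyledon and axis libraries.

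Of the 21 other alpha-crystallin proteins, 17 were highest outside desiccating and dry seed and 4 in it, though 2 of the 21 never reached 1 RPKM. Among all models that reached 1 RPKM, 31.6% were highest in desiccating or dry seed, so 17 of 21 was not far from the background. The models closest to AT2G27140, a group with no class in the Arabidopsis naming, were low throughout, at most 4.01 RPKM in root for Glyma.14G045300. The largest was Glyma.01G156400, closest to AT2G17410, an ARID-domain DNA-binding protein that also carries the crystallin fold. It had 14.9 RPKM in the 5–6 mg cotyledon, where it was the highest of the 84 models, 8.68 in leaf and 3.19 to 7.45 in the rest. Glyma.11G088400, with the same match, ran from 2.77 to 9.83 RPKM. Glyma.02G288700 and Glyma.14G026100, closest to AT1G06460, were highest in the desiccating seed coat, at 5.41 and 5.15 RPKM, and at 0.177 and 0.103 in the dry one.

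Among heat factors, HSFA2 is the factor that amplifies and prolongs the heat response of Arabidopsis. Glyma.17G053700, an HSFA2 match, was at 181.9, 150.8, 154.3 and 133.1 RPKM in desiccating cotyledon, both axes and desiccating seed coat, and at 55.8 and 89.8 in dry cotyledon and dry seed coat. Its values in the other 6 libraries ran from 0.0695 to 2.22 RPKM. Glyma.13G105700, with the same match, had 33.6 to 84.7 RPKM in late seed and at most 1.01 elsewhere. Another match, Glyma.04G052000, was different: it was highest in the Williams 25–50 mg seed coat at 9.59 RPKM, where it was the most abundant heat factor, and reached 9.54 in the 200–300 mg axis.

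HSFB2 factors are repressors of heat and defence genes in Arabidopsis. Glyma.20G156800, closest to AT5G62020, was the highest heat factor of the series at 184.9 RPKM in dry cotyledon. It also had 151.0 in desiccating cotyledon, 133.7 and 48.1 in the younger and older axis and 50.1 and 59.7 in the seed coats, against at most 7.17 elsewhere. Glyma.09G143200, Glyma.10G237800 and Glyma.16G196200, with the same match, peaked at 46.6, 36.4 and 31.4 RPKM in dry cotyledon or dry seed coat.

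The HSFA1 factors are the constitutive master regulators that start the heat response. The 6 matches had modest levels, with Glyma.01G233000 at 10.4 to 19.95 RPKM in late seed and 0.965 to 6.59 elsewhere, and Glyma.07G086300 highest in leaf at 6.47. HSFA5 and HSFA8 matches had the same outline: Glyma.08G108600 (HSFA5) ranged from 5.89 to 16.2 RPKM in late seed and 1.26 to 5.07 elsewhere. Of the 4 HSFA4 models, Glyma.15G086400 was highest, at 13.2 RPKM in dry cotyledon.

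The HSFB1 matches, coregulators of HSFA1, were shared between late seed and root. Glyma.01G185800 had 44.8 RPKM in dry seed coat, 38.9 in root, where it was the highest heat factor, 17.8 to 22.4 in the late cotyledons and younger axis, and 1.87 in the 5–6 mg cotyledon. It was at 0.141 to 0.733 RPKM in leaf and in the seed coats of 5–6 and 25–50 mg. The HSFA3 pair Glyma.10G066100 and Glyma.13G151200 was a root signal, at 15.1 RPKM for each, with 0.0306 to 2.67 in late seed, while their relative Glyma.03G191100 was at 4.08 to 6.80 RPKM in late seed and at most 0.562 elsewhere.

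HSFB4 in Arabidopsis (SCHIZORIZA) patterns root cell divisions. Of the 8 soybean matches, 7 were highest outside late seed and 1 in it. Of all models that reached 1 RPKM, 31.6% were highest in desiccating or dry seed, so most models lay outside it too. Glyma.14G083700 was the most abundant heat factor in leaf, at 17.63 RPKM, with 4.88 in the 5–6 mg cotyledon and 0 to 0.0308 in the young seed coats. Glyma.17G241300 was at 7.68 RPKM in leaf and 4.89 in the 5–6 mg cotyledon. Glyma.20G042000 was the reverse, at 2.11, 2.72 and 4.86 RPKM in the 5–6 mg, Williams 25–50 mg and W55 seed coats and at most 0.661 in any other library. The single HSFC1 match, Glyma.09G190600, was at 2.40 to 5.10 RPKM in late seed and 4.83 in leaf, and the 6 HSFA6 models had at most 3.71 RPKM.

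Cotyledon development was followed from 5–6 mg to desiccating 200–300 mg seed, with models counted where the level on a log2(RPKM + 0.1) scale differed at least 4-fold and either library had 1 RPKM. Of 53 measured small heat shock proteins, 44 were higher in the desiccating cotyledon and 1 lower, where 20.2% of all measured models were higher and 24.9% lower. The median log2 difference was 5.14 beside 0.03 for all models. Class I Glyma.02G076600 went from 16 hits and 0.11 RPKM to 28962 hits and 938.5 RPKM. Chloroplast Glyma.04G229800 was at 0.00564 RPKM, from 1 hit, and then 54.0. The 1 lower model was mitochondrial Glyma.09G223800, at 1.43 RPKM in the 5–6 mg cotyledon and 0 hits in the desiccating one. Heat factors gave 24 of 36 higher and 5 lower, with a median of 2.80. The HSFA2 match Glyma.17G053700 was 1759-fold higher (1276 to 2500), while 3 of the 4 measured HSFB4 models were lower. Read type differed between these libraries and cannot be told apart from stage.

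Seed coat followed another course. From 25–50 mg to desiccating 200–300 mg, 15 of 59 small heat shock proteins were at least 4-fold higher and 18 lower, beside 9.02% and 19.9% of all models. Their median was −0.10 beside −0.26 for all models. With median ratio scaling these were 0.19 and 0.04. The classes differed. Class II was lower in 6 of 6, with Glyma.04G054400 at 31.2 and then 3.61 RPKM, 8.67-fold lower (7.57 to 9.93), and endoplasmic reticulum forms were lower in 5 of 7, or 2 of 4 with the near-equal set as 1, with Glyma.19G011400 at 16.1 and 0.269. Class III was higher in 2 of 2, and mitochondrial Glyma.08G212000 went from 1 hit to 12342. Of the heat factors 14 of 35 were higher and 2 lower, the latter Glyma.04G052000 and HSFB4 Glyma.20G042000, with a median of 1.78. Here too read type changed between the libraries.

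Within the desiccating 200–300 mg stage, where the libraries shared a read type, seed coat had less of this transcript than cotyledon. Of 56 small heat shock proteins, 26 were at least 4-fold lower in seed coat and 4 higher, beside 3.52% and 19.6% of all models. Their median was −1.79 beside 0.33 for all models. All 24 measured class I models and all 6 chloroplast models had a negative difference. Chloroplast Glyma.18G094600 was 43.5-fold lower (37.1 to 51.3) and class I Glyma.14G063700 40.2-fold (37.3 to 43.4). The 4 higher models were both of class IV, class V Glyma.12G215300 and 1 other alpha-crystallin protein. Class IV Glyma.13G205800 had 7.36 RPKM in seed coat and 0.0975, from 3 hits, in cotyledon, a ratio of 75.5 (25.7 to 367). Heat factors were much closer, with 3 of 34 higher, 0 lower and a median of −0.26. Glyma.17G053700 was 1.37-fold lower (1.34 to 1.40) in the seed coat.

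The axis of 200–300 mg seed had a little more than the cotyledon of the same seed. Here 12 of 58 small heat shock proteins were at least 4-fold higher in the axis and 3 lower, beside 3.04% and 2.71% of all 23490 measured models. The endoplasmic reticulum class gave 6 of the 12, 4 of them the near-equal set. With that set taken as 1 model the count was 9 of 55, of which the class gave 3. Its model Glyma.11G187200 had 1133 hits in the axis and 0 in the cotyledon, which makes it at least 149-fold higher against a floor of 3 hits, and ranked 1 among all measured models by log2 difference. Class I Glyma.01G106800 was 22.03-fold higher (18.9 to 25.8), at 110.3 against 5.01 RPKM. The 3 lower were class I Glyma.02G076600, at 157.2 against 938.5 RPKM (5.97-fold, 5.84 to 6.10), and chloroplast Glyma.18G094600 and Glyma.08G318900. Heat factors gave 2 of 34 higher and 0 lower, and their sums were 671.3 and 656.1 RPKM.

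The older axis had less than the younger one, in a comparison added after the values had been seen. From 200–300 mg to 300–400 mg, 34 of 58 small heat shock proteins were at least 4-fold lower and 0 higher, beside 1.14% lower and 0.124% higher of all 23328 measured models. The median log2 difference was −2.32 and that of all models 0.02. Class II Glyma.14G099900, at 17.5 and then 0.423 RPKM, had the lowest log2 difference of all measured models (41.4-fold lower, 30.2 to 58.4), and 6 of the 20 lowest were small heat shock proteins. Class I Glyma.13G176200 was at 223.3 and 7.82 RPKM, 28.6-fold lower (26.6 to 30.8). The endoplasmic reticulum class was lower in 8 of 9, or 5 of 6 with the near-equal set as 1, and class I in 17 of 24. Some members were nearly level: class I Glyma.02G076600 was at 157.2 and 178.7 RPKM, Glyma.12G058200 at 11.6 and 12.4, and mitochondrial Glyma.07G030800 at 12.5 and 10.3.

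Heat factors in the same 2 axis libraries gave 2 of 34 at least 4-fold lower and 0 higher, with a median of −0.45. HSFA2 matches were nearly level, Glyma.17G053700 at 150.8 and 154.3 RPKM (ratio 1.02, 1.01 to 1.04) and Glyma.13G105700 at 84.7 and 81.8 (ratio 0.965, 0.943 to 0.988). HSFB2 matches were lower in the older axis, with Glyma.10G237800 at 33.3 and 7.18 RPKM (4.64-fold, 4.32 to 4.99) and Glyma.20G156800 at 133.7 and 48.1 (2.78-fold, 2.70 to 2.86). Of other chaperones, HSP70 Glyma.17G072400 was at 243.6 and 75.9 RPKM and HSP101 Glyma.05G022200 at 136.6 and 42.1. The most abundant HSP70 of the axis, Glyma.13G130900, was at 419.7 and 357.2 RPKM. The summed lists differed less than the first 2 models, with HSP70 at 2083 and 1290 RPKM, HSP100 at 261.3 and 119.8 and HSP90 at 719.6 and 508.8. Chaperonin 60 was slightly higher in the older axis, at 1058 and 1119. With 1 library each, a difference of seed weight, of harvest and of single plants cannot be told apart.

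**Figure D4:**
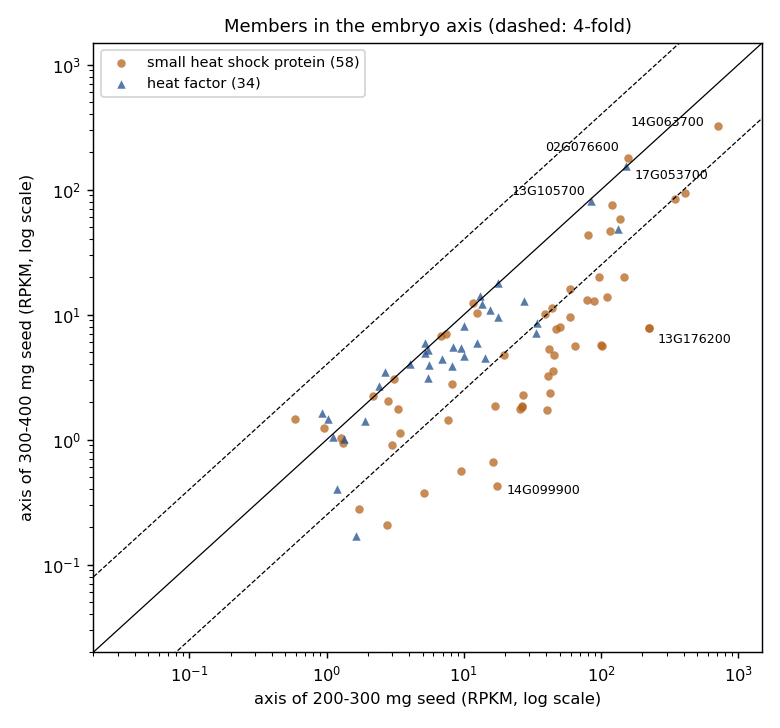
RPKM in the axis of 300-400 mg seed against that of 200-300 mg seed (both log scale) for the 58 small heat shock proteins (circles) and 34 heat factors (triangles) with 1 RPKM in either, with the line of equality and dashed 4-fold lines. Of the circles 34 lie on or under the lower dashed line and 0 on or above the upper one, while the HSFA2 matches 17G053700 and 13G105700 lie close to the line of equality.

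Drying of the seed coat was compared within 1 read type. From 200–300 mg to dry, 18 of 50 small heat shock proteins were at least 4-fold higher and 5 lower, beside 1.15% and 26.5% of all measured models. Their median log2 difference was 1.22 while that of all models was −0.97. Without the chromosome 13 models in the totals the medians were 1.68 and −0.53. All 5 measured class II models were higher, with Glyma.04G054400 at 3.61 and then 37.9 RPKM (10.5-fold, 9.43 to 11.8), and 13 of 21 class I models. Class I Glyma.06G157800 was 12.24-fold higher (10.99 to 13.7). Against this, Glyma.02G076600 was 3.43-fold lower (3.30 to 3.57), and both class IV models were lower, Glyma.13G205800 with 659 and then 4 hits and Glyma.15G106700 with 253 and then 0. The class II sum was 17.1 RPKM in desiccating and 150.7 in dry seed coat.

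Dry cotyledon differed less from desiccating cotyledon. Small heat shock proteins were at least 4-fold higher in 7 of 59 and lower in 0, beside 0.981% and 1.73% of all measured models, and their median was 0.86 beside −0.06. Of the 7, 5 were endoplasmic reticulum models, the set of 4 near-equal models among them, and with that set taken as 1 the count was 4 of 56. The others were class I Glyma.01G106800, at 5.01 and 36.3 RPKM, and Glyma.13G176300, at 12.2 and 50.7. Heat factors differed by 4-fold in 1 of 33 in each direction in cotyledon and in 2 of 35 in each direction in seed coat. HSFB1 Glyma.17G174900 was lower in both organs, at 10.4 and 2.31 RPKM in cotyledon (4.51-fold, 3.998 to 5.09) and 17.6 and 2.85 in seed coat (6.18-fold, 5.65 to 6.77). The HSFA2 match Glyma.17G053700 was also lower in both on the RPKM scale, 3.26-fold (3.18 to 3.34) in cotyledon and 1.48-fold (1.46 to 1.51) in seed coat. The seed coat difference depended on the scaling, which its interval does not cover. Without the chromosome 13 models, desiccating seed coat values would be higher by a factor of 1.031 and dry ones by 1.405. Median ratio scaling divides them by 1.259 and 0.5531, after which this model was higher in dry seed coat. The small heat shock protein sums of the same organs were higher in the dry library.

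Root and leaf are the vegetative references. In root 48 of 69 small heat shock proteins were at least 4-fold higher than in leaf and 2 were lower, beside 16.3% and 12.2% of all measured models, and the median was 4.18 beside 0.07. Class II was higher in 5 of 5, endoplasmic reticulum forms in 8 of 8, or 5 of 5 with the near-equal set as 1, and class I in 19 of 22. Mitochondrial Glyma.12G013100 had 66.5 RPKM in root and 0.765, from 12 hits, in leaf, a ratio of 87.04 (49.8 to 168.5). Peroxisomal Glyma.02G244300 had 4544 hits in root and 1 in leaf. Leaf was the smallest library, and low values there rest on few hits. Heat factors gave 15 of 40 higher and 3 lower. HSFB1 Glyma.01G185800 was 60.1-fold higher in root (37.5 to 103), while HSFB4 Glyma.14G083700 was 12.19-fold lower (10.6 to 13.95). These 2 libraries also differed in instrument, which cannot be told apart from organ.

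The W55 and Williams seed coats of 25–50 mg seed, which share a read type, were compared at 2-fold. For small heat shock proteins 22 of 48 were lower in W55 and 3 higher, beside 3.34% and 2.83% of all 31256 measured models. The classes took unequal parts in this. Class II was lower in 6 of 6 with a median log2 difference of −2.62, class I in 12 of 18 and the peroxisomal pair in 2 of 2. The other alpha-crystallin proteins were lower in 0 of 6. The endoplasmic reticulum class was lower in 0 of 8, or 0 of 5 with the near-equal set as 1. This 0 depended on the pseudocount, the constant added to each RPKM. Without it Glyma.11G187200, Glyma.12G115300 and Glyma.15G159700 of the near-equal set were just past 2-fold lower. They had only 15, 14 and 15 hits in Williams and 9, 8 and 9 in W55. The median of the class was 1.533 RPKM in Williams and 0.8433 in W55, and its sum 26.37 and 21.61. Class II Glyma.14G099900 had 12.8 RPKM in the Williams library and 1.16 in that of W55 (11.1-fold lower, 7.44 to 17.2), and its neighbour Glyma.14G100000 had 14.1 and 1.53. Class I Glyma.13G176500 was at 12.5 and 1.87 RPKM, 6.67-fold lower (4.88 to 9.31), and Glyma.07G200000 at 9.86 and 2.58. Class II Glyma.04G054400 was at 31.2 and 7.16 RPKM.

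The 3 models higher in W55 were low in both seed coats, and their number depended on the setting, from 0 to 7. Class I Glyma.14G063700 was at 0.142 RPKM in Williams, from 2 hits, and 1.06 in W55, from 18. Glyma.14G063800 was at 1.77 and 4.87 RPKM (2.75-fold, 1.88 to 4.11), and endoplasmic reticulum Glyma.10G176400 at 0.522 and 2.24 (4.30-fold, 2.30 to 8.77). Class I Glyma.12G058200 and Glyma.11G134200, the leaf-expressed models, were nearly level, at 6.82 and 9.36 and at 7.88 and 9.76 RPKM.

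Of 29 measured heat factors, 5 were lower by 2-fold or more in the mutant and 1 was higher, beside 3.34% and 2.83% of all models, so the higher count was at the background. The lower ones were HSFA2 match Glyma.04G052000, at 9.59 and 1.88 RPKM (5.11-fold, 4.08 to 6.47), HSFA3 Glyma.13G151200 and the HSFB2 matches Glyma.10G237800, Glyma.09G143200 and Glyma.01G217400. The higher one was HSFB4 Glyma.07G235600, at 0.949 and 2.03 RPKM, and Glyma.20G042000 of the same type was at 2.72 and 4.86. HSFA1 models were lower in 0 of 6 and higher in 0 of 6. Other heat-related lists differed in direction. Of the measured models, HSP100 was lower by 2-fold in 4 of 10, HSP90 in 3 of 19, HSP70 in 4 of 35, ROF1/ROF2 co-chaperones in 3 of 8 and galactinol synthase, which starts raffinose synthesis, in 4 of 4, with 0 higher in each. Chaperonin 60 was lower in 1 of 48, and chaperonin 10, APX2 and HSA32 in 0 of 12, 0 of 4 and 0 of 2, also with 0 higher. The heat factor binding proteins were higher in 1 of 3 and HOP in 1 of 6, with 0 lower in both. The summed binding protein level was 23.9 RPKM in Williams and 42.6 in W55. The summed HOP level went the other way, at 95.97 RPKM in Williams and 74.54 in W55, and its most abundant model Glyma.01G211200 was at 47.11 and 31.39. Each line is 1 library. The i mutation with its other deleted genes, and any difference of parent line, harvest or plant, cannot be told apart.

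**Figure D5:**
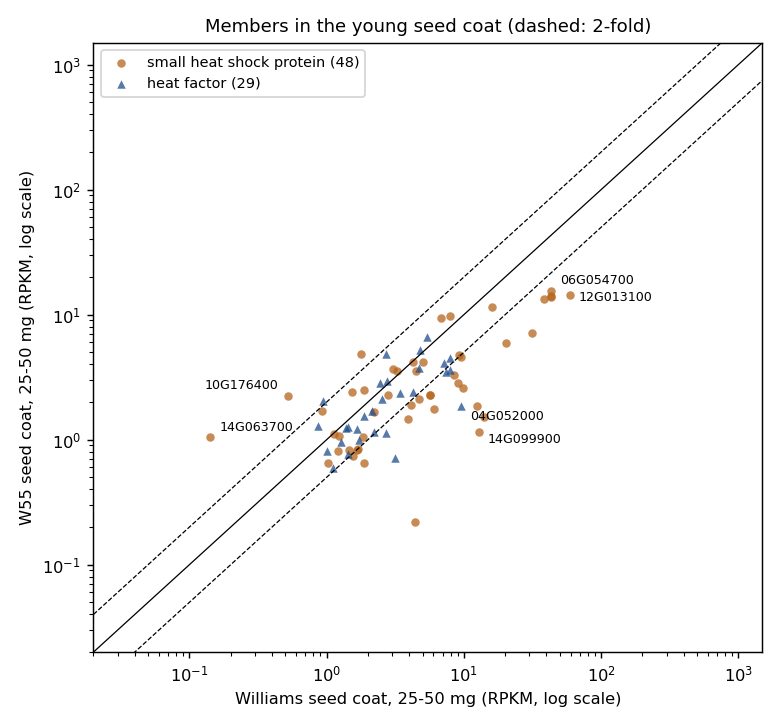
RPKM in the W55 seed coat against the Williams seed coat, both of 25-50 mg seed (log scales), for the 48 small heat shock proteins (circles) and 29 heat factors (triangles) with 1 RPKM in either, with the line of equality and dashed 2-fold lines. Counted with the pseudocount added to RPKM, 22 of the circles were at least 2-fold lower, among them 14G099900, 12G013100 and 06G054700, and 3 higher. In plain RPKM, as on these axes, endoplasmic reticulum models 11G187200, 12G115300 and 15G159700 also fall just under the lower dashed line.

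Other genes of the heat response were read from fixed lists. HSP70 Glyma.17G072400 was at 75.9 to 422.4 RPKM in late seed, highest in dry seed coat, and at 0.0543 to 40.0 elsewhere. Glyma.13G130900 was at 13.9 RPKM or more everywhere, and was highest in the younger and older axis, at 419.7 and 357.2 RPKM. HSP101 Glyma.05G022200, the disaggregase that works with small heat shock proteins, was at 38.6 to 136.6 RPKM in late seed and at most 11.7 elsewhere. All 6 late seed libraries were above the 6 others for 5 of 10 HSP100 models and for 5 of 6 galactinol synthase models, which are HSF targets in Arabidopsis, beside the 7.07% of all models given above. For HSP70 this held for 7 of 39 models and the opposite for 2, and for HSP90 the counts were 0 and 2 of 19. Galactinol synthase Glyma.03G222000 was at 285.9 to 499.2 RPKM in late seed and at most 6.93 elsewhere.

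Not all parts of the response were highest in seed. HSP90 was highest in root for 15 of the 19 models that reached 1 RPKM, and all 4 models closest to APX2, an ascorbate peroxidase, were highest there, with Glyma.19G051400 at 92.3 RPKM. HSA32, which sustains acquired heat tolerance, was highest in root for both of its models. The share of all models highest in root was not counted, so these root counts have no background beside them. The heat factor binding proteins, small negative regulators that dissolve HSF trimers, had all late seed libraries below the others in 2 of 3 models, beside 12.6% of all models. Of these, Glyma.02G154700 was at 2.06 to 8.49 RPKM in late seed and 12.6 to 49.7 elsewhere, while the levels of the remaining model overlapped. The maturation regulator ABI3 was at 21.6 to 87.9 RPKM in late seed for its 2 models and at 0 to 0.019 in root and leaf. It was also at 23.7 and 34.0 RPKM in the 5–6 mg cotyledon, where the small heat shock protein sum was at its lowest.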

How the data were processed

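Total RNA of 12 samples was sequenced as RNA-Seq on Illumina instruments. The authors aligned reads with Bowtie 1 (minor version not given in the sources used here), with up to 25 alignments per read, to the transcripts of the soybean gene models (Wm82.a2), kept the first splice variant and deposited RPKM values with annotation columns. Here the alignments behind each RPKM value were recovered as whole numbers (tolerance 0.001) from model lengths. Members were taken by Pfam domain and classed by closest Arabidopsis protein. Levels were compared as log2(RPKM + 0.1) where either library had at least 1 RPKM, at 4-fold, or 2-fold for W55. With 1 library per condition no test was possible. Ratios carry exact Clopper-Pearson 95% intervals, and a fold against 0 hits uses a floor of 3 hits.

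Members and lists were chosen with earlier results of these data known. The text names a selection from these rules: the 2 highest models of each class, any match of HSFA9, the highest small heat shock protein and heat factor of each library, every member of at least 100 RPKM, of the small heat shock proteins of at least 5 RPKM in either 25–50 mg seed coat those 5 most raised and those 5 most lowered in W55, and the 2 highest models of other lists. Members named beyond these were chosen after their values were seen. The recovery of alignments, the ratios and the calls were tested on simulated data. No sequence of these models was used. Python 3.11.15, numpy 2.4.6, pandas 2.3.3 and scipy 1.17.1 were used. Alternatives were other pseudocounts, minimum levels and scalings. The comparison of the axes, the count over all libraries and the ranks among all models were added after the data had been seen.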

Additional observations from a re-analysis of the deposited data

How the results depend on the processing

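Counts of small heat shock proteins past the fold limit were recomputed under 8 other settings. Of 154 values, 135 lay within 1.5 times the reported count. Those that did not were mostly small counts. For W55 against Williams the 3 higher models became 7 with no minimum, 0 with a minimum of 5 RPKM and 5 after rescaling to TPM. For the seed coat of 200–300 mg against 25–50 mg the 18 lower became 9 with a pseudocount of 1 and 8 with a minimum of 5 RPKM. For dry against 200–300 mg seed coat the 18 higher became 29 with median ratio scaling, and the 5 lower became 3 with a pseudocount of 1 and 3 with the 5 RPKM minimum. That scaling also turned the median of all models there from −0.97 to 0.28, with the members' median at 2.45. For the cotyledon of 200–300 mg against 5–6 mg the 1 lower became 0 with a pseudocount of 1 and 0 with the 5 RPKM minimum, and for dry cotyledon the 0 lower became 1 with a pseudocount of 0.01 and 1 on the TPM scale, while the 7 higher became 4 with the 4 near-equal endoplasmic reticulum models counted as 1, a setting added after seeing the data. For seed coat against cotyledon the 4 higher became 1 with a pseudocount of 1, 2 with the 5 RPKM minimum and 2 with median ratio scaling. For root against leaf the 2 lower became 0, 0 and 1 under those 3 settings. The seed coat median from 25–50 to 200–300 mg changed sign, from −0.10 to 0.19, with median ratio scaling. That of all models moved along with it, from −0.26 to 0.04. The axis and late-seed counts stayed within 1.5 times in each setting run; these were added after seeing the data. No paired analysis was possible because there is 1 library per condition, and for the same reason no replicate could be left out. Shared reads, the small leaf library and the read type of each stage limit what single models show.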
